A study of Mus musculus with 38 samples.

Results

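The genes described here are 39 mouse genes that copy the DNA of a dividing cell or supply the nucleotides for it. They were chosen by their known function, with earlier results of these data known, and were found by symbol in each of 4 count tables. These listed 55487 genes for cultured cells and brain libraries and 57126 genes for tumours and the miRNA experiment. By role they were 4 origin recognition and licensing genes, 12 genes of the replicative helicase and its loading partners, 8 of the polymerases and primase, 6 of the sliding clamp and its loader, 4 of single strand binding and fragment joining, 4 of deoxynucleotide supply, and Ung. All 39 passed the filter on low counts, at least 3 CPM (the count scaled to library size) in at least 3 libraries, in cultured cells, tumours and the miRNA experiment. In brain 38 did, and Gins1 did not.

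Replication begins when the origin recognition complex (Orc1 to Orc6) binds DNA and, with Cdc6 and Cdt1, loads the ring of Mcm2 to Mcm7, the core of the helicase. At the start of S phase Cdc45 and the GINS proteins join the ring, Mcm10 helps to activate it, and the DNA is opened. Primase and DNA polymerase alpha then start each strand, polymerases epsilon and delta extend it on the clamp Pcna, and ribonucleotide reductase, thymidylate synthase and thymidine kinase supply deoxynucleotides. Messenger RNAs of many of these genes peak between late G1 and S phase, so in a bulk sample a lower level cannot be told apart from fewer cells in that phase.

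The series asked how exosomes, vesicles that cells release, from insulin resistant (IR) or insulin sensitive (IS) 3T3-L1 adipocytes act on 4T1, a mouse line from a mammary adenocarcinoma that serves as a triple-negative breast cancer model. The culture experiment held 4T1 cells given IR exosomes for 72 h (n = 3), 4T1 cells given IS exosomes for 72 h (n = 3) and untreated 4T1 cells (n = 3). The brain clonogenic assay, in which colonies are grown from the cells of a tissue, had an IR group (n = 5), an IS group (n = 5) and an untreated control group (n = 5). Primary tumours came from an IR group (n = 5) and an untreated control group (n = 4). The miRNA experiment held 4T1 cells titled miR-145a-3p (n = 3) and 4T1 cells titled scramble (n = 2). All samples are labelled as the 4T1 line, with no strain or age of animal. The titles call the libraries of each group biological replicates, but the labels name neither separate cultures nor animals. The p-values therefore measure the spread between these libraries, part of which may be technical.

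Library totals ran from 8455404 to 12785380 counts in culture, 8790610 to 13272580 in brain, 17392862 to 21909289 in tumours and 24972516 to 32637504 in the miRNA experiment. The typical member varied little between libraries of a culture group, with a median coefficient of variation of 3.3% to 3.4% over the 39 genes, against 15.4% to 16.3% in brain groups and 19.7% and 10.9% in IR and control tumours. The culture libraries were less uniform in the 13 mitochondrially encoded genes. These summed to 926 CPM in IR 2, 5308 and 4257 CPM in IR 1 and IR 3, and 2778 to 6283 CPM in IS exosome and untreated cells. The part of this in the results was not tested. Epcam, an epithelial surface protein, was at 179 ± 12.2 CPM in untreated cultured cells (SD, n = 3) but at 0.913 ± 0.475 CPM in IR, 0.979 ± 0.963 CPM in IS and 2.00 ± 0.983 CPM in control brain libraries (SD, n = 5 each). Cldn7 and Esrp1 were at 0 in some brain libraries, and only 6 of 12 epithelial markers passed the filter there, which goes against the label of 4T1 cells. The brain libraries are therefore called by their label, brain clonogenic assay, and not read as 4T1 cells.

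The promoters of Mcm3, Mcm5, Mcm6 and Mcm7, which fell in cells given IS exosomes, and of Ung, which fell most of the 39, are printed first. Mcm4 fell as well, but no promoter was available for it. These genes were picked because they fell, so their letters are shown beside the results and are no test of them. The sequences are RefSeq's, in build GRCm38.p6, from 250 bases before to 50 bases after the start of the gene, read 5′ to 3′ on the gene's strand. Capitals mark matches to letters that E2F, the transcription factor family known to act on S phase genes, can bind. They were searched as TTTCCCGC, TTTGGCGC, TTTCGCGC and TTTGCCGC on both strands, where matches can overlap. Binding at these places was not measured.
Mcm3, chr1:20820263-20820562, minus strand: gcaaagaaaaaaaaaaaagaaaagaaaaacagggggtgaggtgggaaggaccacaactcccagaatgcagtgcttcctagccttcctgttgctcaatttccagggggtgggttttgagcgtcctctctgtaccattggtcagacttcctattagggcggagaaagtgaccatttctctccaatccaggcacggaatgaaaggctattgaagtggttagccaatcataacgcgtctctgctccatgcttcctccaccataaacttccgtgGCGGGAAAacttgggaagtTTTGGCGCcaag
Mcm5, chr8:75109259-75109558, plus strand: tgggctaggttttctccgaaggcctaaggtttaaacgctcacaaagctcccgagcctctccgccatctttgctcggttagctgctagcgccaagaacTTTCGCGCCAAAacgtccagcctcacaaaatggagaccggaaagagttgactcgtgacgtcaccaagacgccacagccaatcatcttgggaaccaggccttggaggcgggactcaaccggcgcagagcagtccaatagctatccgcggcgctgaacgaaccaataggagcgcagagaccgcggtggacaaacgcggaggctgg
Mcm6, chr1:128359656-128359955, minus strand: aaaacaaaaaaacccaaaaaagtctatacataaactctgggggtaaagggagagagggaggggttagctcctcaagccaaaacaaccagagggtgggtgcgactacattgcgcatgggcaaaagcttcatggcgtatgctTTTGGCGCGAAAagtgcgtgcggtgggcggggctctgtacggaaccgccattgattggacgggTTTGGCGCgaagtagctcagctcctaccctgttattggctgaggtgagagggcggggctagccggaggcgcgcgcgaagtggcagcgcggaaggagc
Mcm7, chr5:138171834-138172133, minus strand: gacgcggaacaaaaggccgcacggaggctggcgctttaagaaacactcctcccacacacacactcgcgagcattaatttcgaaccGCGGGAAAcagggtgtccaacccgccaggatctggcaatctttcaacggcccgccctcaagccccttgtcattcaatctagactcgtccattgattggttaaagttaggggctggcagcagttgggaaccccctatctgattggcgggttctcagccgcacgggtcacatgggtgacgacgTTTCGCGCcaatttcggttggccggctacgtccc
Ung, chr5:114130185-114130484, plus strand: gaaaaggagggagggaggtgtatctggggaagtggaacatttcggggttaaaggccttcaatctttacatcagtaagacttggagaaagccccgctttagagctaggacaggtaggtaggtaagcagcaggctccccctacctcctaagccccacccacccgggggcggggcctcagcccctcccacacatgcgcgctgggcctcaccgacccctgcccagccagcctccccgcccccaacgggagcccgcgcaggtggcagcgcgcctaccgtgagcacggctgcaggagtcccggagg
The table held promoters for 32 of the 39 members, 37 in all because some genes have several starts. The E2F letters stood in 13 of these 37 promoters (35.1%), against 744 of all 32851 promoters of the table (2.26%). The letters CCAAT, which NF-Y can bind, searched on both strands, stood in 21 of 37 (56.8%), against 37.4% of all promoters. The printed promoters of Mcm3, Mcm5 and Mcm7 hold 2 matches each to the E2F letters, the one of Mcm6 holds 3, and that of Ung holds 0 in this window. Mcm7 has another start in the table, with its promoter at chr5:138171217-138171516, which holds 0 matches.

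The comparison of IS exosome cells with untreated cells asked what exosomes of insulin sensitive adipocytes change in 4T1 cells. Of the 39 genes, 9 were lower and 1 was higher at an adjusted p under 0.05, 25.6% of them against 19.3% of all 10888 genes tested (9.97% higher and 9.32% lower). The 9 falls ran from 1.09-fold in Fen1 to 1.64-fold in Ung. Helicase genes made up 5 of the 9. The median log2 fold change over the 39 genes was -0.04, against 0.00 over all genes tested, and by role 5 of 12 helicase genes, 1 of 6 clamp genes, 2 of 4 strand joining genes and Ung were lower, while 1 of 4 nucleotide supply genes was higher and 0 of 4 licensing genes and 0 of 8 polymerase genes were called.

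Mcm7, a subunit of the ring, had 217, 225 and 229.9 CPM in IS exosome cells, against 269, 279 and 272 CPM in untreated cells. The groups stood apart, as those of 36.8% of all genes did, a 1.22-fold fall (log2 -0.29 ± 0.04, SE, adjusted p = 2.4e-05). Mcm5 had 378, 356 and 375 CPM in IS exosome cells, against 433, 439.7 and 440.0 CPM in untreated cells (log2 -0.24 ± 0.04, adjusted p = 0.00021). Mcm6 had 308, 305 and 305 CPM in IS exosome cells, against 362, 340.4 and 371 CPM in untreated cells (log2 -0.22 ± 0.04, adjusted p = 0.00067). For both genes every IS exosome library lay below every untreated library.

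Mcm3 had 320.1, 322 and 317 CPM in IS exosome cells, against 364, 358 and 349 CPM in untreated cells (log2 -0.16 ± 0.03, adjusted p = 0.004). Mcm4 had 220.0, 204 and 212 CPM in IS exosome cells, against 252, 233 and 238 CPM in untreated cells (log2 -0.19 ± 0.04, adjusted p = 0.0062). Neither pair of groups overlapped. Mcm2, the remaining subunit of the ring, had 263, 278 and 275 CPM in IS exosome cells, against 277, 285 and 276 CPM in untreated cells. Its groups overlapped and it did not pass the test (log2 -0.04 ± 0.03, adjusted p = 0.47). Mcm10, Cdc45 and Gins1 to Gins4, which join the ring or activate it, did not pass either, and the 12 helicase genes ran from log2 -0.29 to 0.06. Summed over these 12 genes, the level was 1979 to 1991 CPM in IS exosome cells and 2222 to 2239 CPM in untreated cells.

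Ung, the glycosylase that removes uracil from DNA, had 21.4, 23.4 and 24.1 CPM in IS exosome cells, against 37.6, 35.6 and 39.1 CPM in untreated cells. This 1.64-fold fall was the largest among the 39 genes (log2 -0.71 ± 0.07, adjusted p = 5.2e-06). Pcna, the sliding clamp, had 278, 282 and 291 CPM in IS exosome cells, against 314, 329 and 324 CPM in untreated cells (log2 -0.18 ± 0.04, adjusted p = 0.0019), and its groups did not overlap. The clamp loader genes Rfc1 to Rfc5 did not pass, with all 6 clamp and loader genes between log2 -0.18 and 0.03.

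Lig1, the ligase that seals Okazaki fragments, had 121, 124 and 125 CPM in IS exosome cells, against 136, 143 and 139.8 CPM in untreated cells (log2 -0.18 ± 0.05, adjusted p = 0.019). Fen1, the nuclease that trims those fragments, was at 121 ± 2.05 CPM in IS exosome cells and 132 ± 4.09 CPM in untreated cells (SD, n = 3 each, log2 -0.13 ± 0.04, adjusted p = 0.048). Rrm1, the large subunit of ribonucleotide reductase, went the other way, at 334 ± 14.6 CPM in IS exosome cells and 302 ± 4.86 CPM in untreated cells (SD, n = 3 each, log2 0.14 ± 0.04, adjusted p = 0.022). Rrm2, its small subunit, had 297, 293 and 301 CPM in IS exosome cells, against 292, 303 and 284 CPM in untreated cells (log2 0.02 ± 0.04, adjusted p = 0.8). Tyms, which makes thymidylate, had 79.2, 83.7 and 84.4 CPM in IS exosome cells, against 84.7, 93.7 and 89.3 CPM in untreated cells. All 3 IS values lay below the untreated ones, yet the gene did not pass (log2 -0.11 ± 0.05, adjusted p = 0.14). The summed level of the 4 supply genes was 880.0 to 898 CPM in IS exosome cells and 840.3 to 860.3 CPM in untreated cells.

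The 5 Mcm genes, Pcna and Ung stayed below an adjusted p of 0.05 under all 12 alternatives run for this comparison. The calls of Lig1, Rrm1 and Fen1 were less stable, and those of Lig1 and Rrm1 were lost only when a library was left out. Lig1 missed the threshold without control 2 (0.0743), control 3 (0.0562) or IS 1 (0.0675), and Rrm1 without control 1 (0.0579), control 2 (0.0852) or IS 1 (0.121). Fen1 missed it in 9 of the 12, with its log2 fold change between -0.15 and -0.11 throughout. These were upper quartile scaling (0.0812), no filter (0.0872), the replicate block (0.0633) and DESeq2 (0.101). The others were without control 2 (0.127), control 3 (0.158) and each of IS 1, 2 and 3 (0.122, 0.117 and 0.0691). Fen1 shares 1909 exon bases with Gm10143, and Mcm7 shares 321 with Ap4m1 and 64 with Cops6, all on the opposite strand in the GENCODE annotation, and the strand setting of the counting is not known here. Reads of Pcna-ps2, a processed copy of Pcna, came to 0.27% of the Pcna counts in culture.

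**Figure D1:**
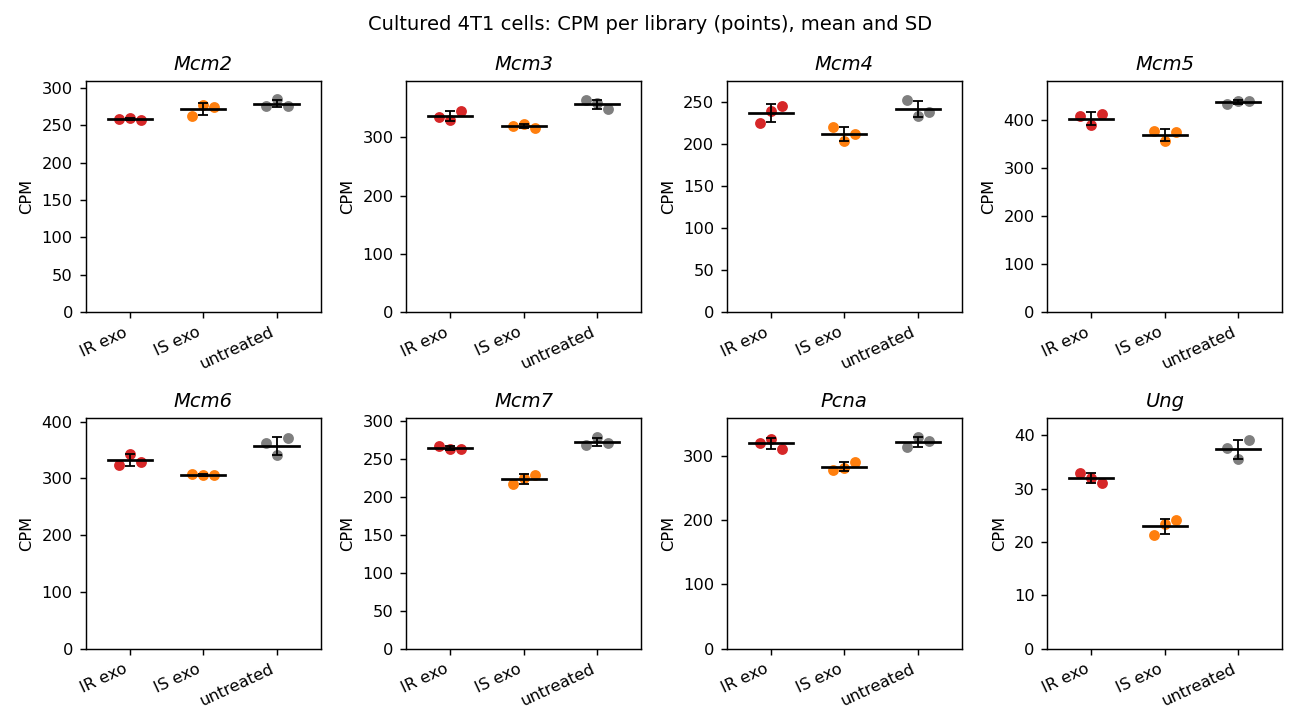
CPM of 8 genes in cultured 4T1 cells given IR exosomes, given IS exosomes or left untreated, where points are libraries, lines are means and bars are SD (n = 3 each). The IS exosome libraries of Mcm7, Pcna and Ung lie below all libraries of both other groups, while those of Mcm2 overlap the untreated ones.

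IR exosomes were compared with no treatment in the same way. Of the 39 genes, 1 was higher and 4 were lower, 12.8% of them against 13.6% of all genes tested (6.67% higher and 6.9% lower), a share near that of all genes, and the median log2 fold change was -0.0047 over the 39 genes and 0.0038 over all genes. Orc1, the large ATPase subunit of the origin recognition complex, had 36.2, 35.04 and 34.7 CPM in IR exosome cells, against 27.9, 28.7 and 27.4 CPM in untreated cells. That 1.26-fold rise (log2 0.34 ± 0.08, adjusted p = 0.0086) kept its call in all 12 alternatives, with an adjusted p of at most 0.0418. In IS exosome cells Orc1 had 35.4, 30.5 and 29.5 CPM, all above the untreated values, but it did not pass (log2 0.19 ± 0.08, adjusted p = 0.11). Orc1 shares 376 exon bases with Gm12743 on the opposite strand.

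The 4 falls in IR exosome cells were small. Mcm2 had 258, 259.8 and 257 CPM in IR exosome cells, against 277, 285 and 276 CPM in untreated cells (log2 -0.11 ± 0.04, adjusted p = 0.046). Mcm5 had 409, 389 and 412 CPM in IR exosome cells, against 433, 439.7 and 440.0 CPM in untreated cells (log2 -0.12 ± 0.04, adjusted p = 0.046). Ung had 32.9, 32.0 and 31.1 CPM in IR exosome cells, against 37.6, 35.6 and 39.1 CPM in untreated cells (log2 -0.23 ± 0.07, adjusted p = 0.046). For these 3 genes the groups stood apart, as for 30.2% of all genes. Pold1, the catalytic subunit of polymerase delta, had 118, 109 and 109 CPM in IR exosome cells, against 130.2, 117 and 128 CPM in untreated cells (log2 -0.16 ± 0.05, adjusted p = 0.044), and its groups overlapped.

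The calls of these 4 genes depended on the processing, while their log2 fold changes stayed between -0.12 and -0.10 in Mcm2, -0.14 and -0.09 in Mcm5, -0.26 and -0.19 in Ung, and -0.21 and -0.13 in Pold1 over the 12 alternatives. Mcm2 lost its call in 11 of 12 alternatives, among them without control 1 (0.0838), control 2 (0.16), control 3 (0.0861), IR 1 (0.0705), IR 2 (0.0682) or IR 3 (0.113). Mcm5 lost it in 8, among them without control 1 (0.087), control 2 (0.125), control 3 (0.119), IR 2 (0.128) or IR 3 (0.0673). Ung lost it in 10, among them without control 1 (0.106), control 3 (0.165), IR 1 (0.0525), IR 2 (0.0917) or IR 3 (0.126). Pold1 lost it in 6, among them without control 1 (0.136), control 3 (0.145), IR 2 (0.135) or IR 3 (0.108).

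The fixed examples that were not called showed little difference between IR exosome and untreated cells. Pcna had 321, 327 and 311 CPM in IR exosome cells, against 314, 329 and 324 CPM in untreated cells (log2 -0.01 ± 0.04, adjusted p = 0.87). Rrm2 had 277, 276 and 299 CPM in IR exosome cells, against 292, 303 and 284 CPM in untreated cells (log2 -0.04 ± 0.04, adjusted p = 0.53). Tyms had 87.3, 87.5 and 86.7 CPM in IR exosome cells, against 84.7, 93.7 and 89.3 CPM in untreated cells (log2 -0.03 ± 0.05, adjusted p = 0.75). The IR and untreated libraries of all 3 genes overlapped.

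IR exosome cells were then set against IS exosome cells. This comparison uses the same libraries as those above, so the 3 sets of values are not independent. Of the 39 genes, 5 were higher with IR exosomes and 0 were lower, 12.8% and 0%, against 2.82% of all genes called higher, 3.45% called lower and 6.27% in either direction. The median log2 fold change was 0.08 over the 39 genes and 0.00 over all genes tested. Mcm7 had 268, 264 and 263 CPM in IR exosome cells, against 217, 225 and 229.9 CPM in IS exosome cells (log2 0.24 ± 0.04, adjusted p = 0.00089). Ung had 32.9, 32.0 and 31.1 CPM in IR exosome cells, against 21.4, 23.4 and 24.1 CPM in IS exosome cells, a 1.4-fold difference (log2 0.48 ± 0.08, adjusted p = 0.0017). The groups of both genes stood apart, as those of 26.6% of all genes did, and they kept their call in all 12 alternatives.

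Pcna had 321, 327 and 311 CPM in IR exosome cells, against 278, 282 and 291 CPM in IS exosome cells (log2 0.17 ± 0.04, adjusted p = 0.011), and lost its call in 1 alternative, without IS 1 (0.0535). Mcm4 had 225, 239 and 245 CPM in IR exosome cells, against 220.0, 204 and 212 CPM in IS exosome cells (log2 0.16 ± 0.04, adjusted p = 0.041). Fen1 had 136, 130.2 and 137 CPM in IR exosome cells, against 119, 119.6 and 123 CPM in IS exosome cells (log2 0.16 ± 0.04, adjusted p = 0.04). All 3 genes stood apart between the groups. Mcm4 lost its call in 6 alternatives, among them without IR 2 (0.0963), IR 3 (0.153), IS 1 (0.0501), IS 2 (0.151) or IS 3 (0.117). Fen1 lost it in 9, among them without IR 1, 2 or 3 (0.0648, 0.0542 and 0.1) or IS 1, 2 or 3 (0.116, 0.103 and 0.0775). Mcm5 came next at log2 0.13 ± 0.04 with an adjusted p of 0.054.

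Among the fixed examples, Mcm2 had 258, 259.8 and 257 CPM in IR exosome cells, against 263, 278 and 275 CPM in IS exosome cells (log2 -0.07 ± 0.03, adjusted p = 0.24), so that the ring subunits did not all lie on the same side. Pold2, not called here, passed as lower with IR exosomes without the filter on low counts (log2 -0.16, adjusted p = 0.036) and without IR 1 (log2 -0.21, adjusted p = 0.032). Rrm2 (log2 -0.06 ± 0.04, adjusted p = 0.38) and Tyms (log2 0.08 ± 0.05, adjusted p = 0.38) did not pass. The summed level of the 39 genes was 5284 to 5353 CPM in IR exosome cells, 5112 to 5128 CPM in IS exosome cells and 5414 to 5425 CPM in untreated cells, an order that was not tested.

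In culture the further replication genes were called about as often as all genes, while mitosis genes were called lower with IS exosomes. Of 54 further replication and nucleotide genes, 4 were higher and 7 lower in IS exosome cells against untreated cells, 20.4% against 19.3% of all genes. The 4 with the smallest p were Ctps, which makes CTP (log2 -0.26 ± 0.04, adjusted p = 8.0e-05), Uhrf1, which guides DNA methylation to new strands (log2 -0.26 ± 0.04, adjusted p = 0.00025), Impdh2, of guanine nucleotide synthesis (log2 -0.16 ± 0.03, adjusted p = 0.0018), and Mcmbp, which binds Mcm subunits (log2 -0.21 ± 0.05, adjusted p = 0.0086). Of 25 mitosis genes, 10 were lower and 0 higher in the same comparison, 40% against 19.3% of all genes, with a median log2 of -0.11. Their summed level was 5098 to 5310 CPM in IR exosome, 4826 to 4915 CPM in IS exosome and 5218 to 5262 CPM in untreated cells. Against IS exosome cells, the mitosis genes Ccnb2, Bub1b, Cdc20, Kif23, Nusap1, Tpx2 and Birc5 were called higher with IR exosomes. None of the mitosis list was called lower there, where 2.82% of all genes were called higher and 3.45% lower. The part of a different share of dividing cells in the results for the replication genes was not tested.

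Among 23 tested genes of the passage from G1 to S phase, 3 were higher and 2 lower in IS exosome cells against untreated cells, 21.7% against 19.3% of all genes, a share near that of all genes. The cyclin gene Ccne1 rose (log2 0.75 ± 0.11, adjusted p = 0.00016), as did Ccnd2 (log2 0.31 ± 0.04, adjusted p = 0.00011) and Ccnd3 (log2 0.28 ± 0.06, adjusted p = 0.0028), and Myc, a driver of growth, fell (log2 -0.17 ± 0.04, adjusted p = 0.0061). Between IR and IS exosome cells 1 was higher and 3 lower, 17.4% against 6.27% of all genes. Ccnd2 (log2 -0.50 ± 0.04, adjusted p = 1.8e-05), Ccne1 (log2 -0.48 ± 0.11, adjusted p = 0.014) and Ccnd3 (log2 -0.23 ± 0.06, adjusted p = 0.024) were lower with IR exosomes and the inhibitor Cdkn1a was higher (log2 0.31 ± 0.09, adjusted p = 0.046). Between IR exosome and untreated cells 1 was higher and 2 lower, 13% against 13.6% of all genes. Ccnd2 (log2 -0.18 ± 0.05, adjusted p = 0.012) and the phosphatase gene Cdc25a (log2 -0.17 ± 0.05, adjusted p = 0.037) fell and the inhibitor Cdkn2c rose (log2 0.14 ± 0.04, adjusted p = 0.017).

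With IR exosomes, 2 of the 54 further replication genes were higher and 3 lower against untreated cells, 9.26% against 13.6% of all genes. Ctps fell (log2 -0.35 ± 0.04, adjusted p = 3.7e-06), as did Cad, which starts pyrimidine synthesis (log2 -0.16 ± 0.04, adjusted p = 0.0071), while the small delta subunit gene Pold4 (log2 0.41 ± 0.08, adjusted p = 0.0026) and the checkpoint mediator Clspn (log2 0.21 ± 0.06, adjusted p = 0.035) rose. Against IS exosome cells 3 were higher with IR exosomes and 1 was lower, 7.41% against 6.27% of all genes. Cad was lower (log2 -0.17 ± 0.04, adjusted p = 0.012), and Mcm9, a helicase of DNA repair (log2 0.44 ± 0.10, adjusted p = 0.017), Impdh2 (log2 0.13 ± 0.03, adjusted p = 0.026) and Uhrf1 (log2 0.15 ± 0.04, adjusted p = 0.033) were higher. The markers of mammary epithelium, 12 genes, summed to 3470 to 3537 CPM in IR exosome, 2976 to 3046 CPM in IS exosome and 3944 to 3956 CPM in untreated cells, and the part of this difference in the results was not tested.

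Genes with and without the E2F letters were among those that fell. Of 13 members with the letters in a promoter, 5 were lower in IS exosome cells, namely Mcm3, Mcm5, Mcm6, Mcm7 and Lig1. Of 19 members with a promoter but without them, 3 were lower, Pcna, Fen1 and Ung, and 1 was higher, Rrm1. Of all genes tested, 9.32% were called lower and 9.97% higher in that comparison. Some of these members were picked for printing because they fell, so the counts are no test of the letters. Orc1, Cdc6, Cdt1, Gins3, Pola1, Pold1, Pole2 and Rfc3 hold the letters and were not called in that comparison.

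**Figure D2:**
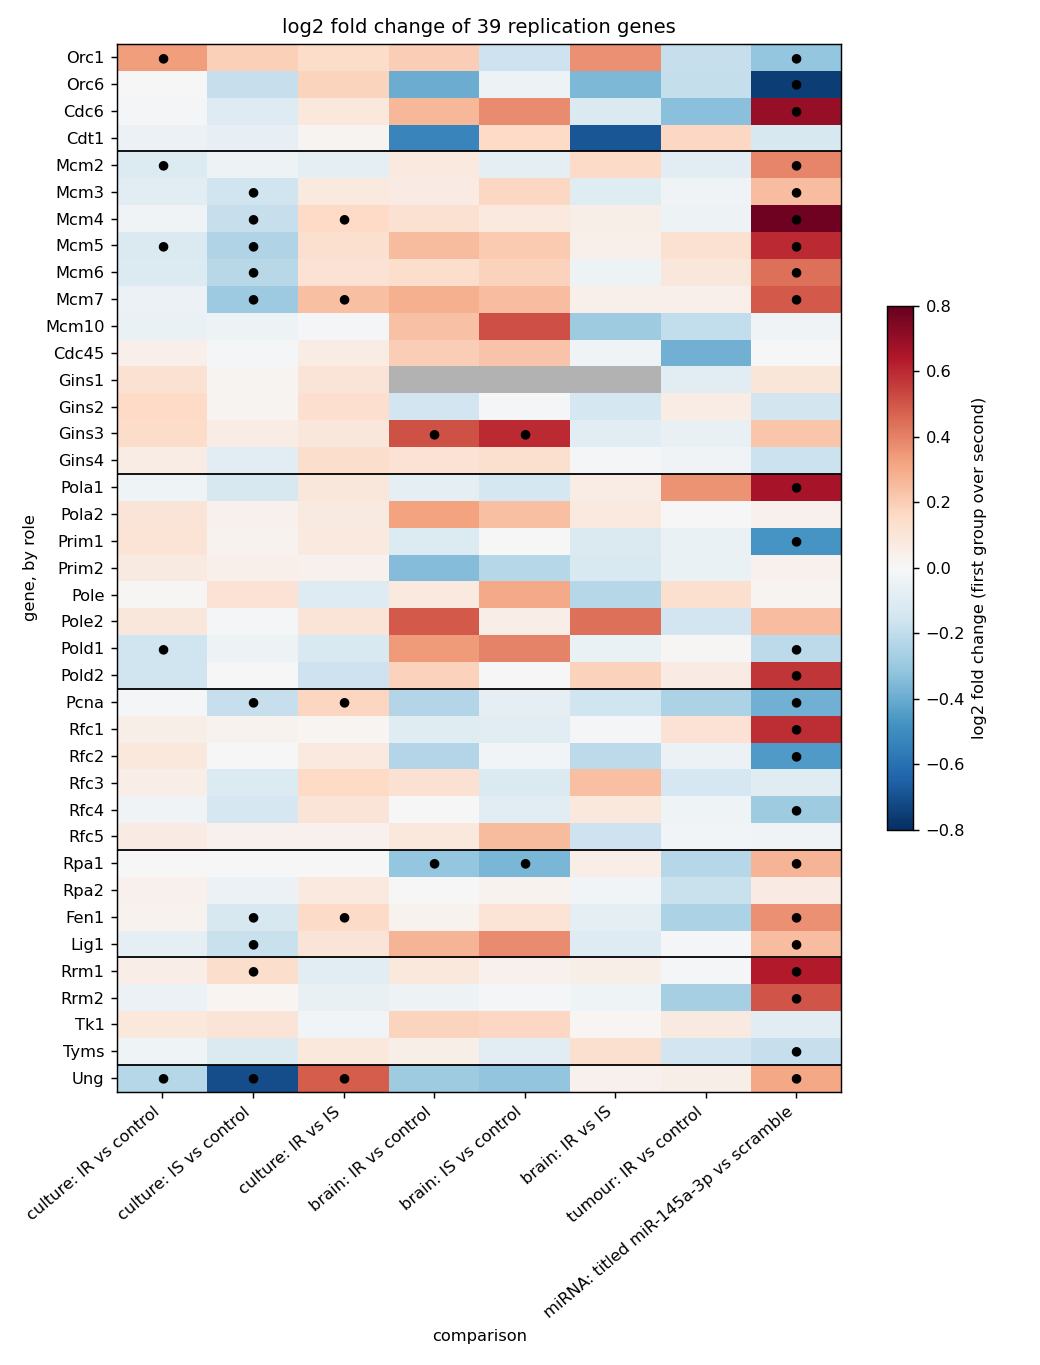
Log2 fold change of the 39 genes (rows, by role, from licensing at the top to Ung at the bottom) in 8 comparisons (columns, first group over second), red for higher and blue for lower, with a dot at an adjusted p under 0.05 and grey for Gins1, not tested in brain. Mcm3 to Mcm7 are pale blue with dots in IS exosome cells against untreated cells. The same genes are red with dots in the miRNA experiment, as titled, and the tumour column holds no dot. Some genes without a dot are more strongly coloured, such as Cdt1 in brain IR against IS.

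In the miRNA experiment the titles and the library names name the groups the other way round. Libraries titled miR-145a-3p carry names of a scrambled RNA and libraries titled scramble carry names of the miRNA. Values are given as titled, and every direction in this comparison turns round if the library names are right. As titled, 16 of the 39 genes were higher in miR-145a-3p cells and 8 lower, 61.5% against 56.7% of all 10751 genes tested (28% higher and 28.7% lower). The share was near that of all genes, and the median log2 fold change was 0.07 over the 39 genes and -0.01 over all genes. The libraries titled scramble differed more from each other than those titled miR-145a-3p did. The median over the 39 genes was 0.12 without scramble 2 and 0.07 without scramble 1. Members moved in both directions: 6 of 12 helicase genes, 3 of 4 strand binding and joining genes and 2 of 4 supply genes were higher, while 2 of 4 licensing genes and 3 of 6 clamp genes were lower.

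In the licensing group, Orc6, a small subunit of the origin recognition complex, had 63.6, 60.5 and 61.5 CPM in cells titled miR-145a-3p, against 97.2 and 112 CPM in cells titled scramble. The groups stood apart, a 1.69-fold fall as titled (log2 -0.75 ± 0.07, adjusted p = 0.00017). Cdc6, which loads the ring with it, had 59.1, 63.7 and 63.3 CPM as titled miR-145a-3p, against 39.2 and 37.3 CPM as titled scramble, a rise (log2 0.70 ± 0.07, adjusted p = 0.00018). Orc1 was lower (log2 -0.31 ± 0.07, adjusted p = 0.0069), and Cdt1 did not pass (log2 -0.13 ± 0.06, adjusted p = 0.092).

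All 6 subunits of the ring were higher. Mcm4 had 207, 209 and 200.4 CPM in cells titled miR-145a-3p, against 134 and 106 CPM in cells titled scramble, a 1.71-fold rise (log2 0.78 ± 0.10, adjusted p = 0.00043). Mcm5 had 371, 357 and 367 CPM as titled miR-145a-3p, against 255 and 229 CPM as titled scramble (log2 0.59 ± 0.07, adjusted p = 0.00029). Mcm7 had 255, 238 and 253 CPM as titled miR-145a-3p, against 185 and 169 CPM as titled scramble (log2 0.49 ± 0.06, adjusted p = 0.00058). The groups of these 3 genes stood apart, and scramble 2 was the lowest library in each. Mcm6 had 311, 308 and 306 CPM as titled miR-145a-3p, against 233 and 221 CPM as titled scramble (log2 0.44 ± 0.06, adjusted p = 0.00045). Mcm2 had 251, 239 and 245 CPM as titled miR-145a-3p, against 202 and 171 CPM as titled scramble (log2 0.39 ± 0.08, adjusted p = 0.0034). Mcm3 rose least (log2 0.25 ± 0.06, adjusted p = 0.0081). Mcm10, Cdc45 and Gins1 to Gins4 did not pass, so no called helicase gene was lower.

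Subunits of the same complex moved in opposite directions elsewhere. Pola1, the catalytic subunit of polymerase alpha, was higher (log2 0.66 ± 0.11, adjusted p = 0.0014), while Prim1, of the primase bound to it, was lower (log2 -0.47 ± 0.07, adjusted p = 0.00076). Pold2, a delta subunit, had 156, 139.9 and 148 CPM in cells titled miR-145a-3p, against 101 and 98.1 CPM in cells titled scramble (log2 0.57 ± 0.06, adjusted p = 0.00029), while Pold1 was lower (log2 -0.21 ± 0.06, adjusted p = 0.0196). Rfc1, the large loader subunit, had 117, 124 and 114 CPM as titled miR-145a-3p, against 83.0 and 74.4 CPM as titled scramble (log2 0.59 ± 0.07, adjusted p = 0.00037). Rfc2 (log2 -0.46 ± 0.09, adjusted p = 0.003) and Rfc4 (log2 -0.28 ± 0.07, adjusted p = 0.0095) were lower. Pcna had 281, 276 and 269 CPM as titled miR-145a-3p, against 346 and 372 CPM as titled scramble, a 1.3-fold fall (log2 -0.38 ± 0.06, adjusted p = 0.0011). Pcna-ps2 held 1.41% of the Pcna counts here, and Orc6 shares 171 exon bases with Vps35, Rfc2 952 with Lat2 and Rfc4 194 with Eif4a2, each on the opposite strand.

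Of the remaining genes, Rpa1, of the complex that coats single strands (log2 0.27 ± 0.06, adjusted p = 0.0042), Fen1 (log2 0.37 ± 0.06, adjusted p = 0.0014), Lig1 (log2 0.25 ± 0.05, adjusted p = 0.0055) and Ung (log2 0.31 ± 0.07, adjusted p = 0.0052) were higher as titled. Both reductase subunits were higher, Rrm1 at log2 0.64 ± 0.08 (adjusted p = 0.0006) and Rrm2, with 294, 298 and 287 CPM in cells titled miR-145a-3p against 228 and 186 CPM in cells titled scramble, at log2 0.50 ± 0.09 (adjusted p = 0.0018). Tyms had 89.8, 87.6 and 86.3 CPM as titled miR-145a-3p, against 99.8 and 100.1 CPM as titled scramble (log2 -0.19 ± 0.05, adjusted p = 0.016). The libraries of all 24 called genes stood apart between the groups, which held for 73% of all genes tested. Leaving out 1 library ended 2 calls, Tyms without miR-145a-3p 2 (0.0558) or 3 (0.0788), and Pold1 without scramble 2 (0.0528) or miR-145a-3p 1, 2 or 3 (0.0507, 0.0799 and 0.0564).

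**Figure D3:**
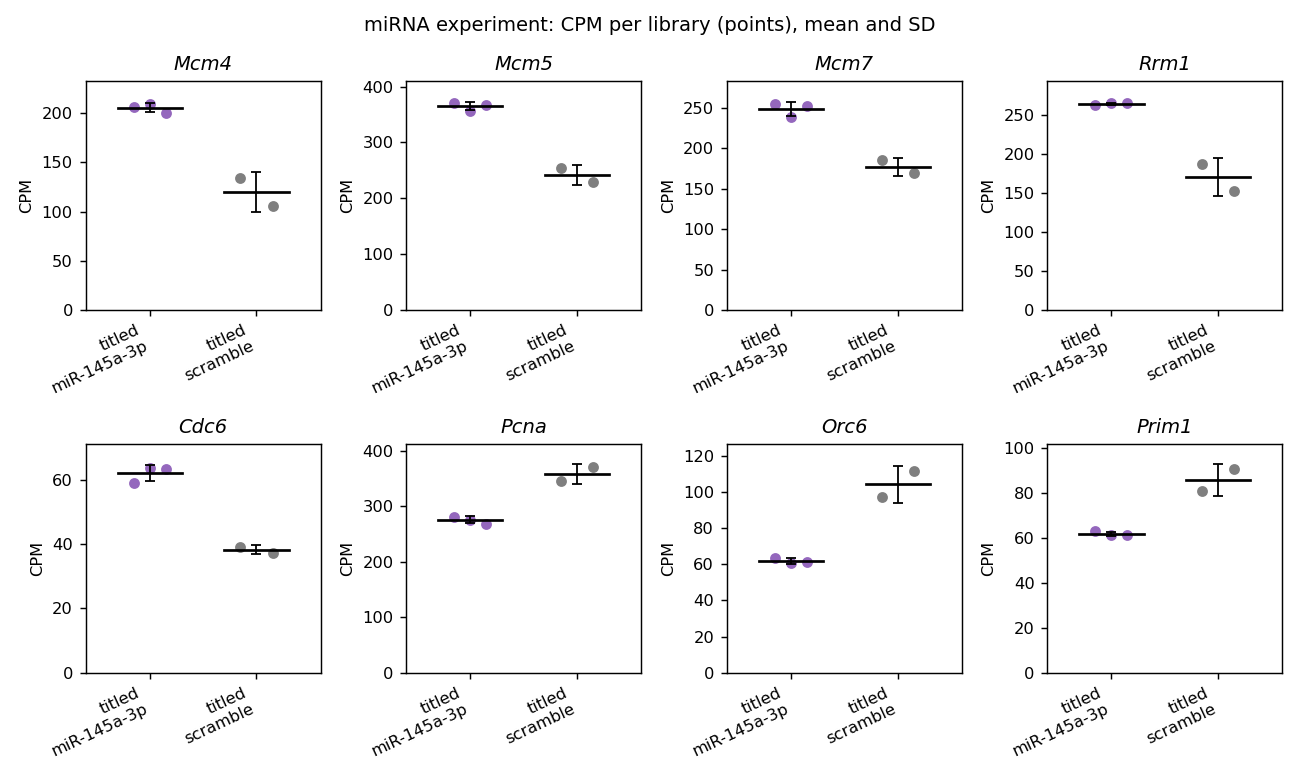
CPM of 8 genes in 4T1 cells titled miR-145a-3p (n = 3) and titled scramble (n = 2), where points are libraries, lines are means and bars are SD. As titled, Mcm4, Mcm5, Mcm7, Rrm1 and Cdc6 are higher and Pcna, Orc6 and Prim1 lower in miR-145a-3p cells, and all directions turn round if the library names are right.

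Messenger RNAs encoded in mitochondria moved with these groups. The 13 genes summed to 16190 to 18850 CPM in cells titled miR-145a-3p and to 85900 and 136100 CPM in cells titled scramble. All 13 were lower, where 28.7% of all genes were called lower, and their median log2 fold change was -2.71. The part of this difference in RNA content in the results above was not tested. As titled, 19 of 25 mitosis genes were higher and 1 lower in miR-145a-3p cells, 80% against 56.7% of all genes. Of the 54 further replication genes, 19 were higher and 14 lower, 61.1% against 56.7% of all genes, including Supt16, of a histone chaperone (log2 0.76 ± 0.08, adjusted p = 0.00027), Cad (log2 0.67 ± 0.08, adjusted p = 0.00031), Recql4, a helicase (log2 -0.74 ± 0.09, adjusted p = 0.00045), and Top1, a topoisomerase (log2 0.47 ± 0.06, adjusted p = 0.00053). Of 23 tested G1 to S genes, 10 were higher and 2 lower, 52.2% against 56.7% of all genes. The 4 with the smallest p, all higher, were the cyclins Ccnd1 (log2 0.74 ± 0.06, adjusted p = 0.00012), Ccnd2 (log2 0.59 ± 0.06, adjusted p = 0.00019) and Ccna2 (log2 0.39 ± 0.06, adjusted p = 0.0011), and Myc (log2 0.33 ± 0.06, adjusted p = 0.0022).

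In the brain clonogenic assay the replication genes differed little. Of 38 tested, 1 was higher and 1 lower in the IR group against control, 5.26% against 11.7% of all 12924 genes tested (6.45% higher and 5.27% lower). In the IS group against control it was likewise 1 and 1, 5.26% against 6.46% (3.37% higher and 3.1% lower). Both comparisons share the control libraries. Rpa1 had 159, 148, 128, 164 and 153 CPM in IR libraries and 160.2, 144.9, 146, 132 and 138 CPM in IS libraries, against 186, 176, 201, 192 and 176 CPM in control libraries. Every IR and every IS library lay below every control library, a 1.24-fold fall in IR (log2 -0.31 ± 0.07, adjusted p = 0.013) and a 1.29-fold fall in IS (log2 -0.37 ± 0.07, adjusted p = 0.0083). Both calls held in all 16 alternatives. Libraries that do not overlap made up 11.8% of all genes in the IR comparison and 7.81% in the IS comparison.

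Gins3, a subunit of GINS, had 4.92, 5.78, 5.82, 5.97 and 5.77 CPM in IR libraries and 6.11, 5.22, 4.93, 6.28 and 7.39 CPM in IS libraries, against 4.33, 3.72, 3.41, 3.77 and 4.58 CPM in control libraries. The control libraries were the lowest, and the gene was higher in IR (log2 0.51 ± 0.16, adjusted p = 0.047) and in IS (log2 0.59 ± 0.16, adjusted p = 0.033). The call in IR was lost in 14 of 16 alternatives, among them without control 1 to 5 in turn (0.0637, 0.095, 0.103, 0.0967 and 0.0525) or IR 1 to 5 in turn (0.0514, 0.0786, 0.0971, 0.0705 and 0.0817). The call in IS was lost in 8, among them without control 2 (0.0754), control 3 (0.081), control 4 (0.0704), IS 4 (0.0617) or IS 5 (0.0795). The median log2 fold change of the 38 genes was 0.08 in IR and 0.04 in IS, against 0.00 for all genes in both. The size of these medians depended on single libraries, and no median changed sign when a library was left out. In the IR comparison they ran from 0.02 without IR 1 to 0.11 without IR 3. In the IS comparison they ran from 0.01 without IS 1 to 0.10 without IS 4.

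None of the 38 genes was called between the IR and IS groups, where 6 of 12924 genes were (0.0464%, with 0.0232% in each direction), and 2 had an unadjusted p under 0.05. The smallest p belonged to Cdt1, the licensing factor, with 14.3, 10.6, 8.14, 13.9 and 15.1 CPM in IR libraries, against 15.2, 15.2, 19.5, 24.9 and 24.9 CPM in IS libraries. Its groups did not overlap, as for 1.89% of all genes (log2 -0.68 ± 0.20, adjusted p = 0.082), and it passed with DESeq2 (adjusted p = 0.0262) and without IS 2 (adjusted p = 0.0237). Orc6 had 5.49, 6.69, 5.24, 7.58 and 5.03 CPM in IR libraries, against 10.0, 6.996, 6.98, 7.24 and 7.16 CPM in IS libraries (log2 -0.36 ± 0.17, adjusted p = 0.27). Mcm2 had 48.7, 50.4, 42.4, 49.7 and 43.5 CPM in IR libraries, against 42.9, 43.8, 38.1, 42.7 and 43.8 CPM in IS libraries (log2 0.15 ± 0.07, adjusted p = 0.29). Both of these overlapped.

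Neither Pcna, Mcm2, Rrm2 nor Tyms passed in any brain comparison. Pcna had 73.8, 71.1, 63.3, 85.3 and 73.8 CPM in IR libraries and 91.6, 66.8, 75.7, 87.2 and 88.5 CPM in IS libraries, against 98.1, 84.8, 82.3, 81.5 and 85.6 CPM in control libraries. The IR libraries were mostly lower, with 1 among the controls (log2 -0.24 ± 0.09 in IR against control, adjusted p = 0.12), and IR passed without IR 4, the highest of them (adjusted p = 0.0479). Mcm2 had 45.7, 42.7, 49.0, 43.6 and 41.3 CPM in control libraries, which overlapped the IR values (log2 0.08 ± 0.07, adjusted p = 0.55) and the IS values (log2 -0.07 ± 0.07, adjusted p = 0.63). Rrm2 had 21.8, 12.1, 9.11, 16.9 and 15.4 CPM in IR libraries and 15.6, 12.3, 17.9, 12.1 and 18.9 CPM in IS libraries, against 15.7, 12.0, 17.1, 15.1 and 17.4 CPM in control libraries, all overlapping. Tyms had 8.61, 4.56, 6.40, 8.38 and 9.41 CPM in IR libraries and 7.98, 6.996, 8.19, 4.79 and 6.11 CPM in IS libraries, against 6.70, 6.63, 5.96, 8.75 and 8.10 CPM in control libraries, again overlapping.

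**Figure D4:**
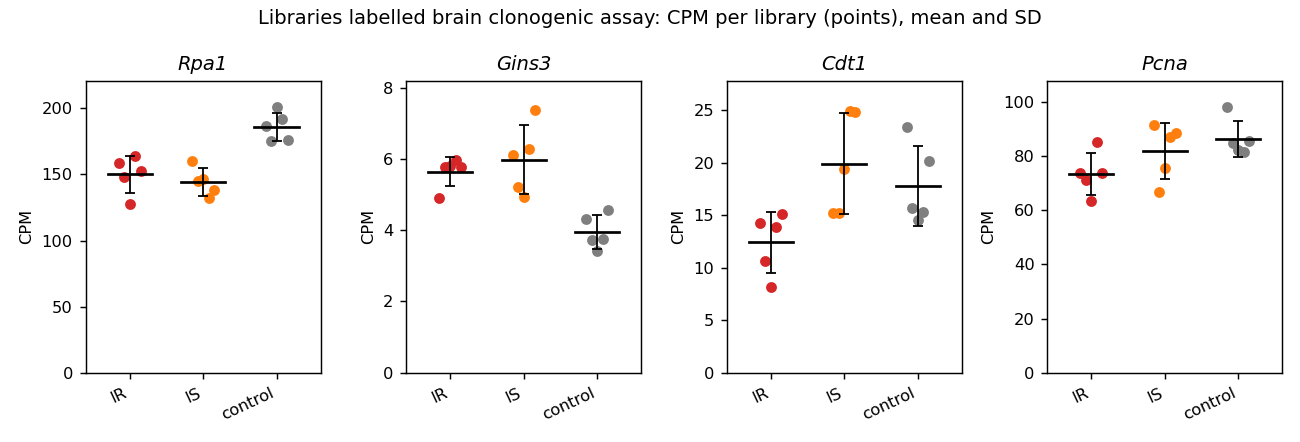
CPM of Rpa1, Gins3, Cdt1 and Pcna in libraries labelled brain clonogenic assay, where points are libraries, lines are means and bars are SD (n = 5 in each of the IR, IS and control groups). Rpa1 is below all control libraries in both other groups and Gins3 above them, while the lowest IS library of Cdt1 lies just above the highest IR library.

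Among the sums below, endothelial markers in IR and astrocyte markers in IS lay above all control libraries. Macrophage and microglia markers in IR lay below them, and the other sums overlapped the control libraries. The 9 endothelial markers summed to 512 to 1102 CPM in IR, 188 to 875 CPM in IS and 138 to 192 CPM in control libraries. All 9 were higher in IR against control and 6 in IS, where 6.45% and 3.37% of all genes were called higher. The 12 markers of macrophages and microglia summed to 109 to 394 CPM in IR, 229.8 to 1027 CPM in IS and 527 to 747 CPM in control libraries. The 12 epithelial markers summed to 147 to 229 CPM in IR, 123 to 257 CPM in IS and 188 to 263 CPM in control libraries. The 9 pericyte and smooth muscle markers summed to 391 to 818 CPM in IR, 426 to 1238 CPM in IS and 754 to 1071 CPM in control libraries. The 8 astrocyte markers summed to 172.3 to 282 CPM in IR, 221.3 to 356.1 CPM in IS and 187.5 to 217.2 CPM in control libraries. The 13 mitochondrially encoded genes summed to 26400 to 38610 CPM in IR, 26280 to 37500 CPM in IS and 19010 to 30140 CPM in control libraries. The part of cell makeup and RNA content in the results for Rpa1 and Gins3 was not tested. Of 52 tested further replication genes, 1 was higher and 2 lower in IR against control (5.77% against 11.7% of all genes) and 1 was lower in IS (1.92% against 6.46%). They were Umps, of pyrimidine synthesis (log2 -0.41 ± 0.07 in IR, adjusted p = 0.0017, and -0.25 ± 0.07 in IS, adjusted p = 0.045), the fork protein Timeless (log2 0.76 ± 0.22 in IR, adjusted p = 0.036) and Samhd1, which breaks down deoxynucleotides (log2 -0.31 ± 0.09 in IR, adjusted p = 0.041). Of 25 G1 to S genes, 2 were called in each comparison, 8% against 11.7% of all genes in IR and 6.46% in IS. Those that fell in IR were E2f1 (log2 -0.26 ± 0.08, adjusted p = 0.046) and Cdkn1a (log2 -0.35 ± 0.11, adjusted p = 0.048), and in IS they were Cdkn1a (log2 -0.45 ± 0.11, adjusted p = 0.022) and Ccnd2 (log2 -0.46 ± 0.13, adjusted p = 0.04). No mitosis gene was called in brain.

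In primary tumours, no replication gene was called between the IR and control groups, where the edgeR test called 0 of 12962 genes (0%). Among the 39 genes 0 had an unadjusted p under 0.05, against 991 of all genes, and DESeq2 called 0 of the 39. The median log2 fold change was -0.04 over the 39 genes and 0.01 over all genes, and no member stood apart between the groups, against 2.41% of all genes. With the replicate number as a block the median over the 39 genes was -0.13, again with 0 calls, and with libraries left out in turn it ran from -0.11 without IR 5 to 0.05 without IR 1, so its sign rested on 1 library. The 3 members with the smallest p were Cdc45, Cdc6 and Pola1. Cdc45 had 22.0, 35.8, 24.2, 32.0 and 37.2 CPM in IR tumours, against 45.8, 33.9, 40.6 and 37.8 CPM in control tumours (log2 -0.39 ± 0.18, adjusted p = 0.66). Cdc6 had 13.9, 23.8, 17.5, 20.3 and 17.0 CPM in IR tumours, against 25.1, 24.0, 25.2 and 19.1 CPM in control tumours (log2 -0.33 ± 0.17, adjusted p = 0.72). Pola1 had 36.4, 33.7, 45.9, 34.6 and 23.6 CPM in IR tumours, against 27.5, 24.2, 34.4 and 22.7 CPM in control tumours (log2 0.36 ± 0.19, adjusted p = 0.75). The groups of all 3 genes overlapped.

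The fixed examples showed the same overlap. Pcna had 142, 209, 158, 205 and 263 CPM in IR tumours, against 259, 225, 227 and 220.1 CPM in control tumours (log2 -0.25 ± 0.17, adjusted p = 0.83). Rrm2 had 47.3, 92.3, 58.5, 74.8 and 74.1 CPM in IR tumours, against 90.7, 86.5, 75.3 and 80.7 CPM in control tumours (log2 -0.26 ± 0.18, adjusted p = 0.83). In both genes the values of IR tumours 1 and 3 were the lowest of the 9. Mcm2 had 76.6, 109, 103, 89.5 and 92.2 CPM in IR tumours, against 104, 98.0, 104 and 93.0 CPM in control tumours (log2 -0.09 ± 0.11, adjusted p = 0.95). Tyms had 28.1, 41.5, 33.7, 36.8 and 44.9 CPM in IR tumours, against 46.0, 39.3, 45.0 and 34.1 CPM in control tumours (log2 -0.15 ± 0.15, adjusted p = 0.92).

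IR tumours differed among themselves across most of the 39 genes. In IR tumour 1 only 3 of 39 genes lay above the mean of the control tumours, with a median log2 ratio to that mean of -0.43, and in IR tumour 3 it was 10 genes and -0.25. In IR tumours 2 and 5 it was 30 genes each, with medians of 0.09 and 0.17, and in IR tumour 4 it was 19 genes and -0.02. The 4 control tumours had medians between -0.11 and 0.07, a range narrowed in part because each of them enters that mean. The summed level of the 39 genes was 2026 to 2958 CPM in IR tumours and 2399 to 2750 CPM in control tumours. Fibroblast markers, 10 genes, summed to 6859 to 13100 CPM in IR tumours and 3912 to 7211 CPM in control tumours, and epithelial markers to 3745 to 6941 CPM in IR and 3251 to 5147 CPM in control tumours. None of the 54 further replication genes, 24 tested G1 to S genes or 25 mitosis genes was called.

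**Figure D5:**
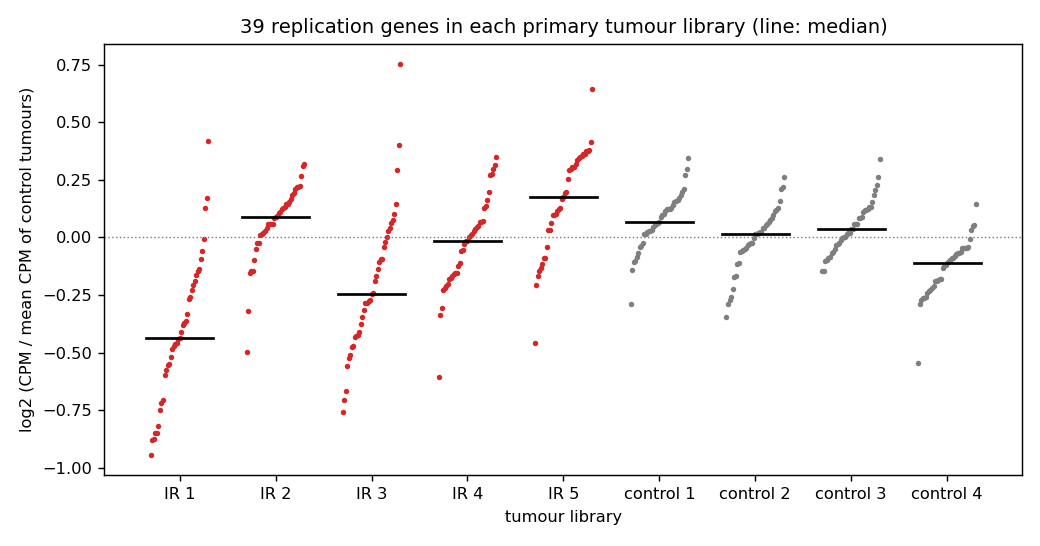
Log2 ratio of CPM to the mean CPM of the control tumours for the 39 genes (points, sorted within each library) in 5 IR and 4 control tumours, with the median of each library as a line. Medians of the IR tumours run from -0.43 to 0.17 and those of the control tumours from -0.11 to 0.07, so the IR tumours lie on both sides of the controls. Each control tumour is part of the mean it is divided by, which draws its ratios toward 0.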

How the data were processed

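RNA was sequenced paired-end after a stranded messenger RNA library preparation, per the labels' protocols. The authors deposited unnormalised expected counts per gene, estimated with RSEM for culture and brain and with salmon for tumours and the miRNA experiment, per the file headers, and they are not whole for every gene. Per the submitters' processing notes the tools included Trimmomatic, STAR, featureCounts and DESeq2, on GRCm38 and GRCm39. No source used here says which build made which table. 3 columns of the culture table match no sample and were not used. IR columns of the culture and brain tables were placed by group, with the number of the column name.

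The counts were rounded, and each table was fitted by itself with all its groups. Genes with at least 3 CPM in at least 3 libraries were tested with edgeR 4.0.16 (R 4.3.3, limma 3.58.1), using TMM scaling, the quasi-likelihood test and Benjamini-Hochberg adjustment over all genes tested, with calls at an adjusted p under 0.05. CPM is the count scaled by the summed tested-gene count times the TMM factor, as edgeR gives it. The SE is the size of the log2 fold change over the square root of F. The script was tested on simulated counts. Levels of different genes are not comparable, since CPM does not correct for length.

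The 39 genes and all gene lists were chosen with earlier results of these data known. The text gives library values for called members, at most 8 with the smallest adjusted p in a comparison, or, in comparisons with no call, for the 3 of lowest p, and for Pcna, Mcm2, Rrm2 and Tyms throughout. Of the lists of other replication genes and G1 to S genes, at most 4 called genes per comparison are named. Other lists are given as counts, medians and summed CPM, except that mitosis genes called between IR and IS exosome cells are named. Further marker lists of other cell types were summed and are not used here.

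Deviations of same-numbered tumours correlated positively in each of 4 pairs (0.136, 0.759, 0.23 and 0.117 across genes), while some pairs were negative in culture, brain and the miRNA experiment. The labels state no pairing, and IR tumours 1 and 4 deviated most like control 3. In the 1 strong pair, 9 lymphocyte markers summed to 433 CPM in control 2 and 514 CPM in IR 2. They summed to 111 CPM in IR 5 and 7.0 to 16 CPM in the other tumours. The part of these markers in the correlation was not tested. Tumour values come from the fit without the block, and the blocked median is given beside them. Control tumour 4 has a library name with another number. No 2 libraries of a group differed by as little as sampling noise. The chi-square per degree of freedom over genes was 64.0 between the libraries titled scramble. It was 5.72 to 7.61 between libraries titled miR-145a-3p. Alternatives were DESeq2 size factors within the edgeR test, upper quartile scaling, no filter, the DESeq2 1.42.0 test, only the groups compared, a replicate block and leaving out each library.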

Additional observations from a re-analysis of the deposited data

Results flagged for a closer look

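Among 195 sets of 4 or 5 libraries tested for one value far from the rest, 16 held such a library, where chance alone flags about 1 in 20 sets. In brain, 14 were found. Values above the rest of their group were Orc6 in IS 1 (10.02 CPM), Mcm6 in IR 1 (20.43 CPM), Pole2 in IR 1 (4.067 CPM), Pcna in control 1 (98.07 CPM), Rpa2 in control 5 (12.76 CPM), Fen1 in IS 1 (33.97 CPM), Tk1 in control 4 (6.82 CPM) and Ung in IR 3 (6.108 CPM). Values below the rest were Mcm2 in IS 3 (38.06 CPM), Mcm10 in control 3 (1.597 CPM), Gins3 in IR 1 (4.918 CPM), Pold1 in IR 4 (15.84 CPM), Rfc1 in IS 5 (45.61 CPM) and Rfc2 in IS 2 (28.82 CPM). In tumours, control 4 was high for Gins2 (49.74 CPM) and low for Lig1 (84.38 CPM).

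The low Gins3 value belongs to the IR group in which this gene was called higher than in control, and without that library its log2 fold change was 0.56, against 0.51 with all libraries. IR 1 and IS 1 hold 3 and 2 of the 14 brain values, among libraries of 15. No cause was tested.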

How the results depend on the processing

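No log2 fold change of a called member turned round under any alternative. Of the 39 genes, 5 were called in IR exosome against untreated cells, and 1 with upper quartile scaling, 3 without the filter, 3 with a replicate block, 3 with DESeq2, 1 with only both groups and 1 to 5 when libraries were left out. In IS exosome against untreated cells 10 were called, and 7 to 9 with libraries left out. In IR against IS exosome cells 5 were called, 6 with upper quartile scaling, 7 without the filter (with Mcm5 higher and Pold2 lower), 4 with the replicate block, 3 with only both groups and 2 to 5 with libraries left out. In brain, IR against control gave 2, and 1 with upper quartile scaling, without the filter, with the replicate block or with DESeq2, 3 with only both groups (Pola2 added) and 1 to 2 with libraries left out. IS against control gave 2, and 1 without the filter, with the block or with only both groups, 3 with DESeq2 (Pold1 added) and 1 to 3 with libraries left out. IR against IS gave 0, 1 with DESeq2 and 0 to 1 with libraries left out. Tumours gave 0 throughout. The miRNA experiment gave 24, 27 with upper quartile scaling, 22 without the filter, 16 with the replicate block and 22 to 28 with libraries left out. The numbers do not pair these libraries. With the block Orc1 (adjusted p = 0.053), Mcm3 (0.12), Pold1 (0.13), Rfc4 (0.126), Rpa1 (0.0757), Lig1 (0.089), Tyms (0.232) and Ung (0.0635) were not called, with directions kept. Without the filter Orc1 (0.135), Pold1 (0.465), Rfc4 (0.231) and Tyms (0.575) were lost there, and all genes shifted by -0.14.

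Over all genes, leaving out libraries gave 1073 to 1402 calls in IR exosome against untreated cells, 1503 to 1688 in IS exosome against untreated cells, 298 to 864 in IR against IS exosome cells, 838 to 1803 in brain IR against control, 461 to 874 in brain IS against control, 0 to 1171 in brain IR against IS, 0 to 1 in tumours and 4711 to 6930 in the miRNA experiment. Brain IR against IS gave 6 calls, 334 without the filter, 0 with the block, 604 with DESeq2 and 0 with only both groups. Tumours gave 0 calls, 1 with the block, 4 with a block by library-name number (chosen after seeing the data) and 124 with DESeq2, and the miRNA experiment gave 6093, and 3990 with the block. Without scramble 1 or 2 the lone library is assumed to vary like the other group. The causes were not tested.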
